A study of Mus musculus with 5 samples.

Results

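Lrrc32, Itgb8, Itgav and Furin encode surface and processing machinery for latent TGF-beta, and all 4 were found among the 24417 genes with a symbol in the count table. They were chosen by gene symbol, as the genes whose products hold, process and release the latent cytokine. All 4 were among the 14164 genes that passed the filter on low counts. The cells sequenced came out of mouse colon, from the lamina propria, which is the connective tissue below the gut epithelium. Every mouse carried the same pair of Foxp3 alleles, Foxp3DTR-GFP and the reporter-null allele loxp-Thy1.1-STOP-loxp-GFP. The Treg group (2 libraries) held cells positive for Foxp3-DTR-GFP, which use the intact allele, tagged with a diphtheria toxin receptor and green fluorescent protein. The reporter-null group (3 libraries) held Thy1.1+ cells, in which the allele that lacks Foxp3 protein is active. No treatment is labelled, and the labels give neither the age nor the number of mice. The description of reporter-null replicate 1 joins the numbers 1 and 4 without saying what they mark. Whether libraries stem from separate animals is not labelled, so p-values reflect library-to-library spread alone, which may be technical.

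TGF-beta is made as a precursor that furin, a protease of the secretory pathway, cuts into a mature dimer and a propeptide that stays wrapped around it. GARP, the product of Lrrc32, binds this latent complex and carries it to the surface of Treg cells and platelets. The integrin alpha-v beta-8, made of the Itgav and Itgb8 products, grips an RGD motif in the propeptide and frees active TGF-beta. In the gut, TGF-beta guides the formation of peripheral Treg cells and of Th17 cells.

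Promoter sequence is shown for Itgb8 and Furin, the genes with RefSeq promoter entries (build GRCm38.p6) whose transcripts differed most between the groups, in opposite directions. Each run is the 250 bases before an annotated start, 5′ to 3′ in the direction of transcription, and capitals mark CAGACA, a Smad box.
Itgb8, chr12:119238277-119238526, minus strand: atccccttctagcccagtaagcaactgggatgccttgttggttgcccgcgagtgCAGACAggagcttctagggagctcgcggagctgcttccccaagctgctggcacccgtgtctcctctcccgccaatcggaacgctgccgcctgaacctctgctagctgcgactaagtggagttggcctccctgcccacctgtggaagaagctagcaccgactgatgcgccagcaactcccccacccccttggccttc
Furin, outer start, chr7:80405437-80405686, minus strand: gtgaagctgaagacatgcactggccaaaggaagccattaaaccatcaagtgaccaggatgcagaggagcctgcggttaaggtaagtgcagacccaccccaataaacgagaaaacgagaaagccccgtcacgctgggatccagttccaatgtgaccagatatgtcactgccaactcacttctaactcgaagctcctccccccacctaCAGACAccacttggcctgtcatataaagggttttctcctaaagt
Furin, inner start, chr7:80402813-80403062, minus strand: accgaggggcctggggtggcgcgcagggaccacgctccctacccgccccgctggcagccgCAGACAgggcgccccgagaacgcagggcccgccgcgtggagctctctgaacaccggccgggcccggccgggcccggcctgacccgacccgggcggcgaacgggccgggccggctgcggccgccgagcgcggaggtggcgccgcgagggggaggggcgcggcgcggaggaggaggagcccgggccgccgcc
The 3 windows each held a CAGACA, read on the printed strand, at 196 to 191 bases before the start in Itgb8. In Furin it lay at 44 to 39 bases before the outer start and at 190 to 185 bases before the inner one. On either strand, 17.1% of 32851 RefSeq promoter windows of the same length hold this motif. The window of Itgav, which is not printed here, held no CAGACA on either strand. No match on either strand was found in the 3 windows for the forkhead motif TGTTTAC, which is in 3.17% of all windows. The same holds for the AP-1 motif TGANTCA with its share of 6.75%, and for the GATA motif AGATAA with 9.99%. It holds too for the Runx motif TGTGGT with 14.0%, the NFAT core GGAAA with 55.6%, and the CRE and NF-kB motifs with 1.55% and 1.21%. GGGCGG, a GC box, was found in the window of the inner Furin start alone, on both strands, against 32.7% of all windows. That window was 83.2% G and C and held 40 CpG, while the outer Furin window had 6 and the Itgb8 window 12.

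Some facts of the libraries bear on what follows. Total counts ran from 17670420 to 22395169 per library. Foxp3 stood at 764 and 770.0 CPM (counts per 1000000 after scaling) in the Treg libraries and at 75.7, 80.7 and 81.3 CPM in the reporter-null libraries, so every library followed its label. Of 8 T cell markers, 7 were in the table, and their summed level was 5827 to 5875 CPM in Treg and 5503 to 6163 CPM in reporter-null cells, although within it Cd4 was higher (0.99, adjusted p = 0.00796) and Cd2 lower (-1.37, 0.00186) in the latter. Treg replicate 1 and reporter-null replicate 2 stood apart on the first principal component, which held 48.0% of the variance. All 8 epithelial markers were measured, and these sum to 262 CPM in Treg replicate 1 and 1067 CPM in reporter-null replicate 2, against 21.3 to 42.2 CPM in the other libraries. None of the 8 was at 0 throughout. All 7 markers of megakaryocytes and platelets, which also make GARP, stayed under 2 CPM in every library. Of the 7 endothelial markers 6 did so, and the other, Pecam1, is also made by T cells. Of 11 dendritic cell and macrophage markers, Clec9a had no count and 5 in all stayed under 2 CPM, and the summed level was 25.5 to 54.6 CPM in Treg and 33.0 to 77.6 CPM in reporter-null cells. Of these markers Clec10a moved with the groups, with no read in either Treg library and 22, 20 and 18 reads in the reporter-null ones (adjusted p = 0.0275 in the edgeR test). Xcr1, at 2.33 and 0.509 against 5.25, 6.53 and 6.72 CPM, did not overlap and did not pass (0.108). Cd68 went the other way without overlap, at 8.80 and 3.84 against 1.35, 2.78 and 3.11 CPM (-1.38, adjusted p = 0.179 in the edgeR test). So did Itgax, at 0.597 and 0.879 against 0.271, 0.336 and 0.089 CPM (-1.65, 0.337). Flt3, which was not tested, was also lower, at 0.652 and 0.370 against 0.108, 0.144 and 0.178 CPM. The part of dendritic cells, macrophages and B cells in the differences between groups was not tested. The 6 fibroblast markers sum to 9.94 and 42.4 CPM in Treg and 8.85 to 100.5 CPM in reporter-null cells. Of 5 gamma-delta T cell markers, only Sox13 and Blk had a row. Blk, a kinase also made by B cells, was 2.01 and 3.75 CPM in Treg and 54.3, 36.8 and 40.8 CPM in reporter-null cells, so it moved with the groups. Sox13 overlapped between them, at 1.79 and 0.139 CPM in Treg and 0.0542, 3.94 and 0.178 CPM in reporter-null cells (0.53, adjusted p = 0.912 in the edgeR test). The part of gamma-delta cells in the differences between groups was not tested. The B cell marker Cd79b also moved with the groups, at 20.4 and 19.2 against 7.42, 7.10 and 6.81 CPM (-1.47, adjusted p = 0.0046 in the edgeR test).

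GARP and integrin beta-8 transcripts were almost lost from reporter-null cells, furin transcripts were about 5 times as abundant there, and those of integrin alpha-v stood somewhat lower without passing the test. Of the 4 genes 3 passed at an adjusted p under 0.05 in the edgeR quasi-likelihood test, 2 lower and 1 higher. Over all tested genes 8.79% passed, 4.72% lower and 4.07% higher. That background count was 1245 genes. It became 341 and 405 when Treg replicate 1 or 2 was left out, and 467 and 2035 when reporter-null replicate 1 or 2 was. In bulk RNA such as this, fewer cells that express a gene and less RNA per cell cannot be told apart. Fold changes are reporter-null minus Treg on the log2 scale, with a standard error (SE) and a Benjamini-Hochberg adjusted p from the edgeR test over all genes tested.

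Lrrc32, which encodes the anchor GARP, stood at 806 and 698 CPM in Treg replicates 1 and 2 and at 15.5, 21.1 and 9.17 CPM in reporter-null replicates 1, 2 and 3. The groups were far apart, and the Treg libraries held at least 14847 reads of the gene where the highest reporter-null library held 439. The log2 fold change was -5.63 (SE 0.372, adjusted p = 0.00152), or 49.4-fold lower. This was the eighth largest decrease among the 6846 tested genes with a negative fold change. Within the reporter-null group the values differed beyond counting error, with 95% Poisson intervals of 13.7 to 17.4, 19.2 to 23.1 and 7.96 to 10.5 CPM. Such intervals cover counting error only. The summed level of the platelet markers, 1.80 to 2.50 CPM in Treg and 0.756 to 2.54 CPM in reporter-null cells, overlapped between the groups.

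Itgb8, the beta chain that gives the integrin its TGF-beta-releasing activity, was measured at 94.9 and 114 CPM in the Treg libraries. In reporter-null replicates 1, 2 and 3 it was 1.95, 1.30 and 3.43 CPM, from 36, 27 and 77 reads. No reporter-null library came near a Treg library. The log2 fold change was -5.54 (SE 0.388, adjusted p = 0.00162), a 46.6-fold decrease and the ninth largest, next to Lrrc32. Counting intervals of the reporter-null libraries were 1.37 to 2.70, 0.85 to 1.89 and 2.70 to 4.28 CPM, so replicates 2 and 3 differed beyond counting error and replicates 1 and 2 did not. The library with the most epithelial marker RNA, reporter-null replicate 2, had the least Itgb8.

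**Figure D1:**
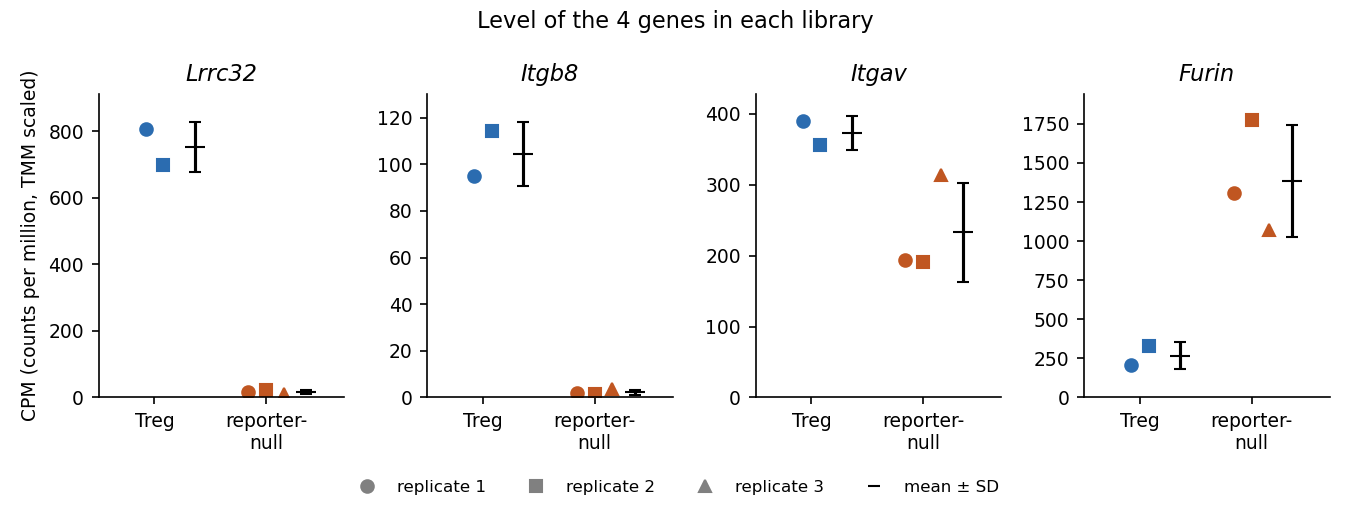
Level of Lrrc32, Itgb8, Itgav and Furin in each library, in CPM on linear axes that start at 0 and differ between panels. Points are libraries (blue Treg, orange reporter-null, shape for the replicate), and the bar gives mean ± SD. Lrrc32 and Itgb8 lie near the axis in all 3 reporter-null libraries, Furin is at 1073 CPM or more in each of them, and Itgav in reporter-null replicate 3 (314 CPM) lies closest to the Treg values.

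The reporter-null mean was 2.03% of the Treg mean for Lrrc32 and 2.13% for Itgb8, against 10.3% for Foxp3. In each library the log2 ratio of Lrrc32 to Foxp3 reads was 0.08 and -0.14 in the Treg group and -2.29, -1.94 and -3.15 in the reporter-null group. The ratio was thus 5.37-fold lower in reporter-null cells, with no overlap between the groups. The exact permutation test, two-sided, gave p = 0.2, the smallest value that 2 against 3 libraries allow. The order of the reporter-null libraries was not shared by the 2 genes. Replicate 2 was highest for Lrrc32 and lowest for Itgb8, and replicate 3 the reverse.

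Itgav, the alpha chain, was 390 and 356 CPM in Treg cells and 194, 191 and 314 CPM in reporter-null cells. The groups did not overlap, but 40.8% of all tested genes have groups that do not overlap, 20.5% with reporter-null cells lower and 20.3% with them higher. Its log2 fold change of -0.68 (SE 0.235) did not pass, with an adjusted p of 0.15. Reporter-null replicate 3 stood well above replicates 1 and 2. Without it the log2 fold change was -0.95 and the adjusted p 0.00877, and DESeq2 (0.0339) and limma-voom with quality weights (0.0191) called the gene with all libraries. Over 16 alternatives the adjusted p ran from 0.00877 to 0.498 and the fold change stayed negative.

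The 2 chains of the integrin therefore did not move by the same amount. The log2 ratio of Itgb8 to Itgav reads was -2.04 and -1.64 in Treg cells and -6.62, -7.18 and -6.51 in reporter-null cells, a difference of -4.93, or 30.5-fold lower. No library crossed between the groups, and the exact two-sided permutation p was again 0.2, the smallest possible. A ratio within a library needs no scaling factor.

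Furin, the convertase that cuts the TGF-beta precursor, went the other way. It stood at 207 and 328 CPM in Treg replicates 1 and 2 and at 1307, 1772 and 1073 CPM in reporter-null replicates 1, 2 and 3. The lowest reporter-null library was more than 3 times the highest Treg library. The log2 fold change was 2.37 (SE 0.306, adjusted p = 0.00772), or 5.17-fold higher, and ranked 282 among the 7318 tested genes with a positive fold change. The extremes were the libraries with the most epithelial marker RNA, since Treg replicate 1 was the lower Treg library and reporter-null replicate 2 the highest of all. Without both, Furin differed by 1.86, in a fit that leaves 1 Treg library. Without Treg replicate 1 alone the log2 fold change was 2.08 and the call was lost (adjusted p = 0.0593), within a range of 2.87e-16 to 0.0593 over 16 alternatives. That fit takes the spread of the lone Treg library from the reporter-null group.

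**Figure D2:**
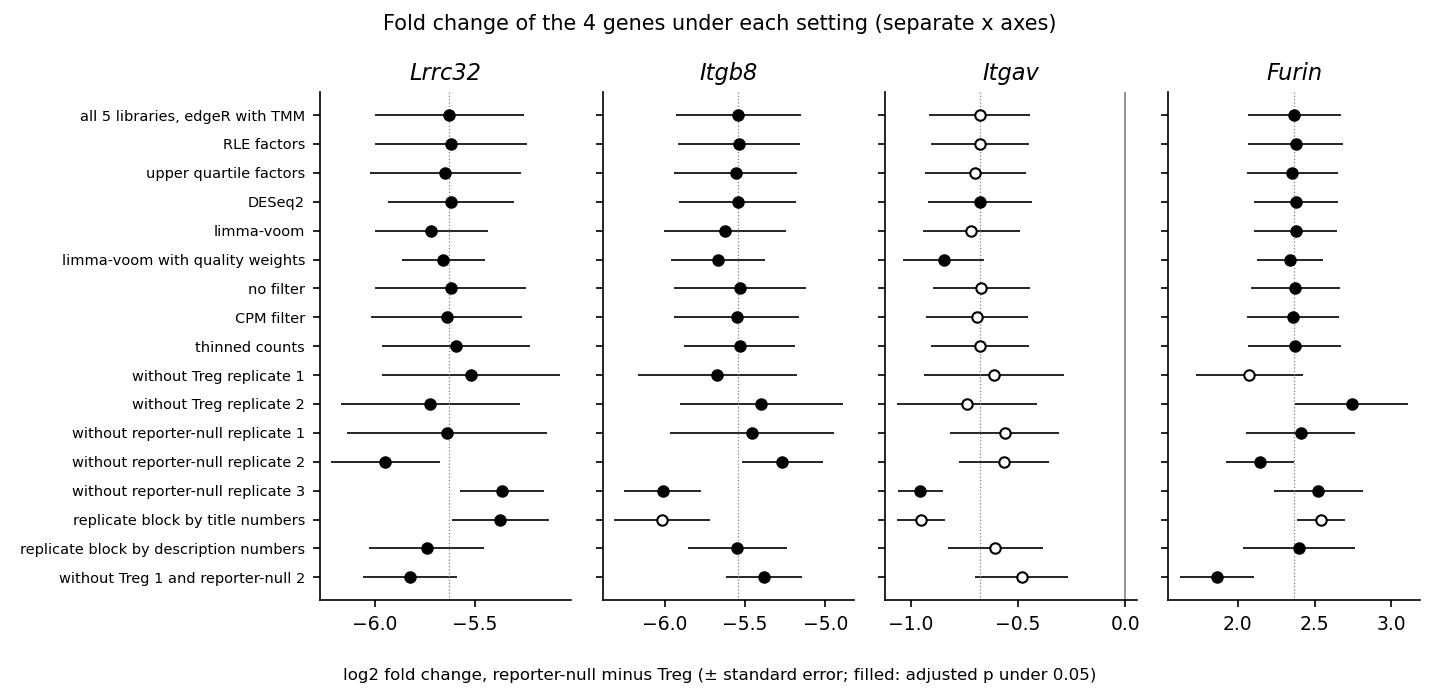
Log2 fold change (reporter-null minus Treg) of Lrrc32, Itgb8, Itgav and Furin under the 17 settings that were run, with standard errors as bars and separate x axes. Filled points have an adjusted p under 0.05. Each gene keeps its sign throughout, Itgav is open in most rows, and Furin is open without Treg replicate 1 and, like Itgb8, with the block by title numbers.

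Set against gene length, Lrrc32 stood above Furin and Itgav in Treg cells and below both in reporter-null cells. Itgb8 came last in both groups. Furin stood above Itgav in the reporter-null libraries and in Treg replicate 2, but below it in Treg replicate 1. Levels are here CPM per kilobase of merged exons in GENCODE M21, which may not be the annotation the authors counted on. In Treg cells Lrrc32 was highest at 164 ± 16.7 CPM per kb (SD, n = 2). Furin (57.2 ± 18.3) and Itgav (52.9 ± 3.36) followed and did not differ beyond their spread, and Itgb8 was lowest at 12.4 ± 1.63. In reporter-null cells Furin was highest at 296 ± 76.1 CPM per kb (SD, n = 3), then Itgav at 33.0 ± 9.90, Lrrc32 at 3.33 ± 1.30 and Itgb8 at 0.265 ± 0.130. No neighbours in that order overlapped. Tgfb1, the main TGF-beta ligand of T cells, was 106 ± 11.7 CPM per kb in Treg and 133 ± 12.2 in reporter-null cells, so it lay below Lrrc32 in the first group and far above it in the second.

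Transcripts of other genes that handle TGF-beta were read from 11 lists with 62 genes, of which 57 were tested. Of these, 5 were higher and 2 lower at an adjusted p under 0.05 (12.3%, where 8.79% of all genes passed), and their median log2 fold change was 0.24 against 0.02 over all tested genes. Higher were Tgfb3, Itgb3, Itga5, Tgfbr2 and Tgfbr3, and lower were Pcsk4 and Itgae. Leaving out reporter-null replicate 2 turned the count of 7 into 13, and leaving out Treg replicate 1 as well gave 14. Each list holds few tested genes, so a count near the share over all genes is not a result about that list.

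Among the ligands, Tgfb1 was 248.7 and 213 CPM in Treg, against 304, 307 and 260 CPM in the other group. The difference of 0.33 (SE 0.134) on the log2 scale did not pass (adjusted p = 0.202). Tgfb3, a ligand whose propeptide also carries an RGD motif, rose from 6.24 and 3.38 CPM to 23.8, 26.5 and 20.3 CPM (2.29, SE 0.307, adjusted p = 0.00619). Tgfb2 was too low to test. Neither tested ligand overlapped between the groups, as for 20.3% of all tested genes in this direction.

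None of the 4 tested carriers other than GARP passed, where 8.79% of all tested genes did. Nrros, which encodes LRRC33, the relative of GARP that holds latent TGF-beta on myeloid cells and microglia, was 86.2 and 81.5 CPM in Treg and 82.7, 59.2 and 81.0 CPM in reporter-null cells. Its log2 fold change was -0.17 (SE 0.166, adjusted p = 0.619), and the groups overlapped. The matrix carriers Ltbp1, Ltbp3 and Ltbp4, which tether latent TGF-beta to the extracellular matrix, did not exceed 12.2 CPM in any library, and Ltbp2 was not tested. That highest value, of Ltbp4, was in reporter-null replicate 2, where fibroblast markers were also highest, and the part of those cells in it was not tested.

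Of the other beta chains that pair with alpha-v, 1 of 3 tested rose and none fell. Over all tested genes 4.07% were higher and 4.72% lower. Itgb3, which also forms an alpha-v integrin, rose from 24.2 and 29.3 CPM to 86.0, 85.9 and 81.5 CPM (1.66, SE 0.133, adjusted p = 0.00101). Itgb5, whose product binds vitronectin together with alpha-v, was 36.5 and 76.7 CPM in Treg against 288, 260 and 165 CPM in the reporter-null libraries (2.07, SE 0.434). It missed the threshold with an adjusted p of 0.0574, and passed in DESeq2 (1.13e-07) and limma-voom (0.0331), in a range up to 0.241 over 16 alternatives. Without both Treg 1 and reporter-null 2 the log2 fold change of Itgb5 was 1.57, in a fit that leaves 1 Treg library. Itgb1, the partner of many alpha chains, gave -0.15 (adjusted p = 0.664), and Itgb6, an epithelial chain, was not tested. The median of the 3 tested chains was 1.66. Per kilobase of exon, Itgb8 made up 21.8% and 18.3% of the 5 beta chains in the Treg libraries. In the reporter-null libraries it made up 0.18%, 0.129% and 0.475%. The share of Itgb5 was 20.8% and 30.4% in Treg against 65.9%, 64.2% and 56.7% in reporter-null cells, so the groups did not overlap for either chain.

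**Figure D3:**
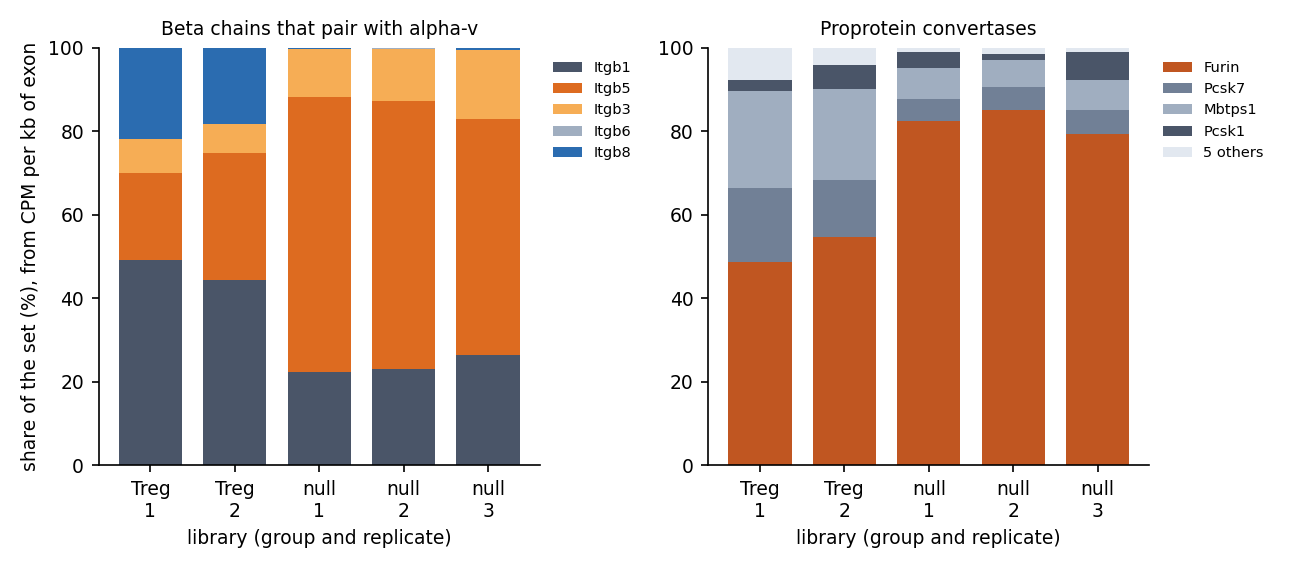
Share of each gene, in percent of the summed CPM per kilobase of exon, among the 5 beta chains that pair with alpha-v (left) and among 9 proprotein convertases (right), for each Treg and reporter-null (null) library. Itgb8 falls from 18.3% or more in Treg libraries to 0.475% or less, and Furin makes up 79.4% to 85.0% of convertase transcripts in reporter-null libraries.

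Of the other alpha chains that read the RGD motif, Itga5, the fibronectin receptor chain, rose from 7.17 and 8.83 CPM to 23.6, 23.5 and 19.7 CPM (1.48, SE 0.195, adjusted p = 0.00595). The call was lost without Treg replicate 1 (0.0631, range 5.87e-09 to 0.0924). Itga2b, the platelet chain, did not exceed 1.19 CPM (-1.14, adjusted p = 0.463), Itga8 was not tested, and the median of the 2 tested chains was 0.17.

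Among 8 other convertases none was higher and 1 was lower, with a median of 0.02, where 8.79% of all tested genes passed in either direction. Pcsk4 fell from 11.5 and 10.1 CPM to 4.39, 5.42 and 4.36 CPM (-1.19, SE 0.254, adjusted p = 0.0343). Of the 5 single libraries, leaving out any but reporter-null replicate 2 ended it, with adjusted p of 0.232 and 0.137 for Treg replicates 1 and 2 and of 0.175 and 0.0855 for reporter-null replicates 1 and 3. The range over all alternatives was 0.000716 to 0.248. The convertases with the most reads gave small differences, 0.24 for Pcsk7 (adjusted p = 0.557) and 0.02 for Mbtps1, the site-1 protease (0.968). Pcsk1, a convertase of endocrine cells, was 12.5 and 35.9 CPM in Treg and 65.7, 27.9 and 98.9 CPM in reporter-null cells, which overlap (1.40, adjusted p = 0.41). Pcsk1 passed in edgeR with the replicate block by description numbers (0.000272). Its log2 fold change was 1.20 when Treg 1 and reporter-null 2 were both left out, in a fit that leaves 1 Treg library. Furin made up 48.7% and 54.7% of convertase transcripts per kilobase in the Treg libraries and 82.4%, 85.0% and 79.4% in the reporter-null libraries.

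Of 13 tested factors that fold or switch on these proteins, none passed, where 8.79% of all tested genes did. The groups did not overlap in 3 folding factors, all higher, and in 1 higher and 2 lower integrin adaptors. Over all tested genes 20.3% were higher and 20.5% lower without overlap. Of the 5 folding factors, with a median of 0.33, Hsp90b1, the chaperone that GARP and integrins need, was 424 and 471 CPM in Treg, against 586, 563 and 599 CPM in the other group (0.38, SE 0.114, adjusted p = 0.0974). Hsp90b1 passed in DESeq2 (0.000517) and in limma-voom with quality weights (0.0355), in a range up to 0.468. Hspa5 (0.30, adjusted p = 0.479) and Calr (0.09, adjusted p = 0.744) did not pass either. Of the 8 adaptors that activate integrins from inside the cell, with a median of -0.25, the most abundant were the GTPase gene Rap1b (-0.25, adjusted p = 0.333), the kindlin gene Fermt3 (-0.32, adjusted p = 0.24) and the talin gene Tln1 (0.44, adjusted p = 0.234). Fermt1, the epithelial kindlin, was 2.39 CPM in Treg replicate 1 and 15.0 CPM in reporter-null replicate 2 and at or under 0.222 CPM elsewhere, and so followed the epithelial marker level.

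Other activators of latent TGF-beta had a median log2 fold change of 1.73 over 6 genes, of which none passed, where 8.79% of all tested genes did. Plg alone of these was lower, with 34 and 25 reads in Treg against 5, 1 and 3 in reporter-null cells. Its groups did not overlap, and it missed the threshold (-3.28, SE 0.865, adjusted p = 0.0682 in the edgeR test). Mmp9, a gelatinase, was 403 and 478 CPM in Treg and 677, 715 and 408 CPM in reporter-null cells (0.45, adjusted p = 0.382). Mmp14, a membrane metalloprotease, was 12.9 and 28.8 against 72.8, 96.0 and 50.3 CPM (1.80, SE 0.469, adjusted p = 0.0992). Mmp14 did pass in DESeq2 (9.53e-05) and in limma-voom with quality weights (0.0199), in a range up to 0.497. Without both Treg 1 and reporter-null 2 its log2 fold change was 1.10, in a fit that leaves 1 Treg library. Mmp9 passed without reporter-null replicate 3 (0.66, adjusted p = 0.0374). Thbs1, which encodes thrombospondin, was 11.2 CPM in Treg replicate 1 and 67.0 CPM in reporter-null replicate 2 and did not exceed 1.30 CPM elsewhere. Without reporter-null replicate 2 the median of the list turned to -0.24 and the log2 fold change of Thbs1 from 1.99 to -2.26. Epithelial and fibroblast markers were highest in the same library, and their part in these values was not tested.

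Of 5 receptors and co-receptors, 2 rose and none fell, where 4.07% of all tested genes were higher and 4.72% lower. Tgfbr3, which encodes betaglycan, a co-receptor that presents the ligand, rose from 1.47 and 3.38 CPM to 50.5, 42.5 and 57.7 CPM (4.36, SE 0.393, adjusted p = 0.0024). Tgfbr2, the ligand-binding kinase receptor, rose from 187 CPM in each Treg library to 462, 495 and 398 CPM (1.27, SE 0.134, adjusted p = 0.00268). Tgfbr1, the signalling receptor it recruits, was 48.9 and 85.8 CPM in Treg, against 31.5, 28.9 and 37.4 CPM in reporter-null cells, and missed the threshold (-1.05, SE 0.248, adjusted p = 0.0553). It passed without reporter-null replicate 2 (0.0336) and in DESeq2 (0.00234), among 9 of 16 alternatives, some of which leave 1 Treg library. With each library left out, its log2 fold change ran from -1.39 to -0.58. The low receptors Eng (1.52, adjusted p = 0.242) and Acvrl1 (-0.51, adjusted p = 0.358) did not pass, and the median of the 5 was 1.27.

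Downstream of the receptors, none of 9 tested Smads and Smad regulators passed, with a median of -0.09, where 8.79% of all tested genes passed. The most abundant were Tgif1, a repressor of Smad targets (-0.38, adjusted p = 0.633, but -0.79 and 0.0108 without reporter-null replicate 2), Skil, which encodes SnoN (-0.09, adjusted p = 0.77), and Smad4, the shared Smad (0.00, adjusted p = 0.995). Of 7 genes that TGF-beta induces in many cells, 1 passed, against the same share of all tested genes. Itgae, which encodes CD103, fell from 531 and 553 CPM to 18.4, 15.5 and 21.6 CPM (-4.87, SE 0.166, adjusted p = 5.76e-05). Smad7, the feedback inhibitor, was 128 and 106 CPM in Treg and 87.0, 132 and 78.8 CPM in reporter-null cells (-0.24, adjusted p = 0.645; -0.51 and 0.0431 without reporter-null replicate 2), and Pmepa1, another feedback inhibitor, gave 0.01 (adjusted p = 0.99). In both genes the groups overlapped.

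**Figure D4:**
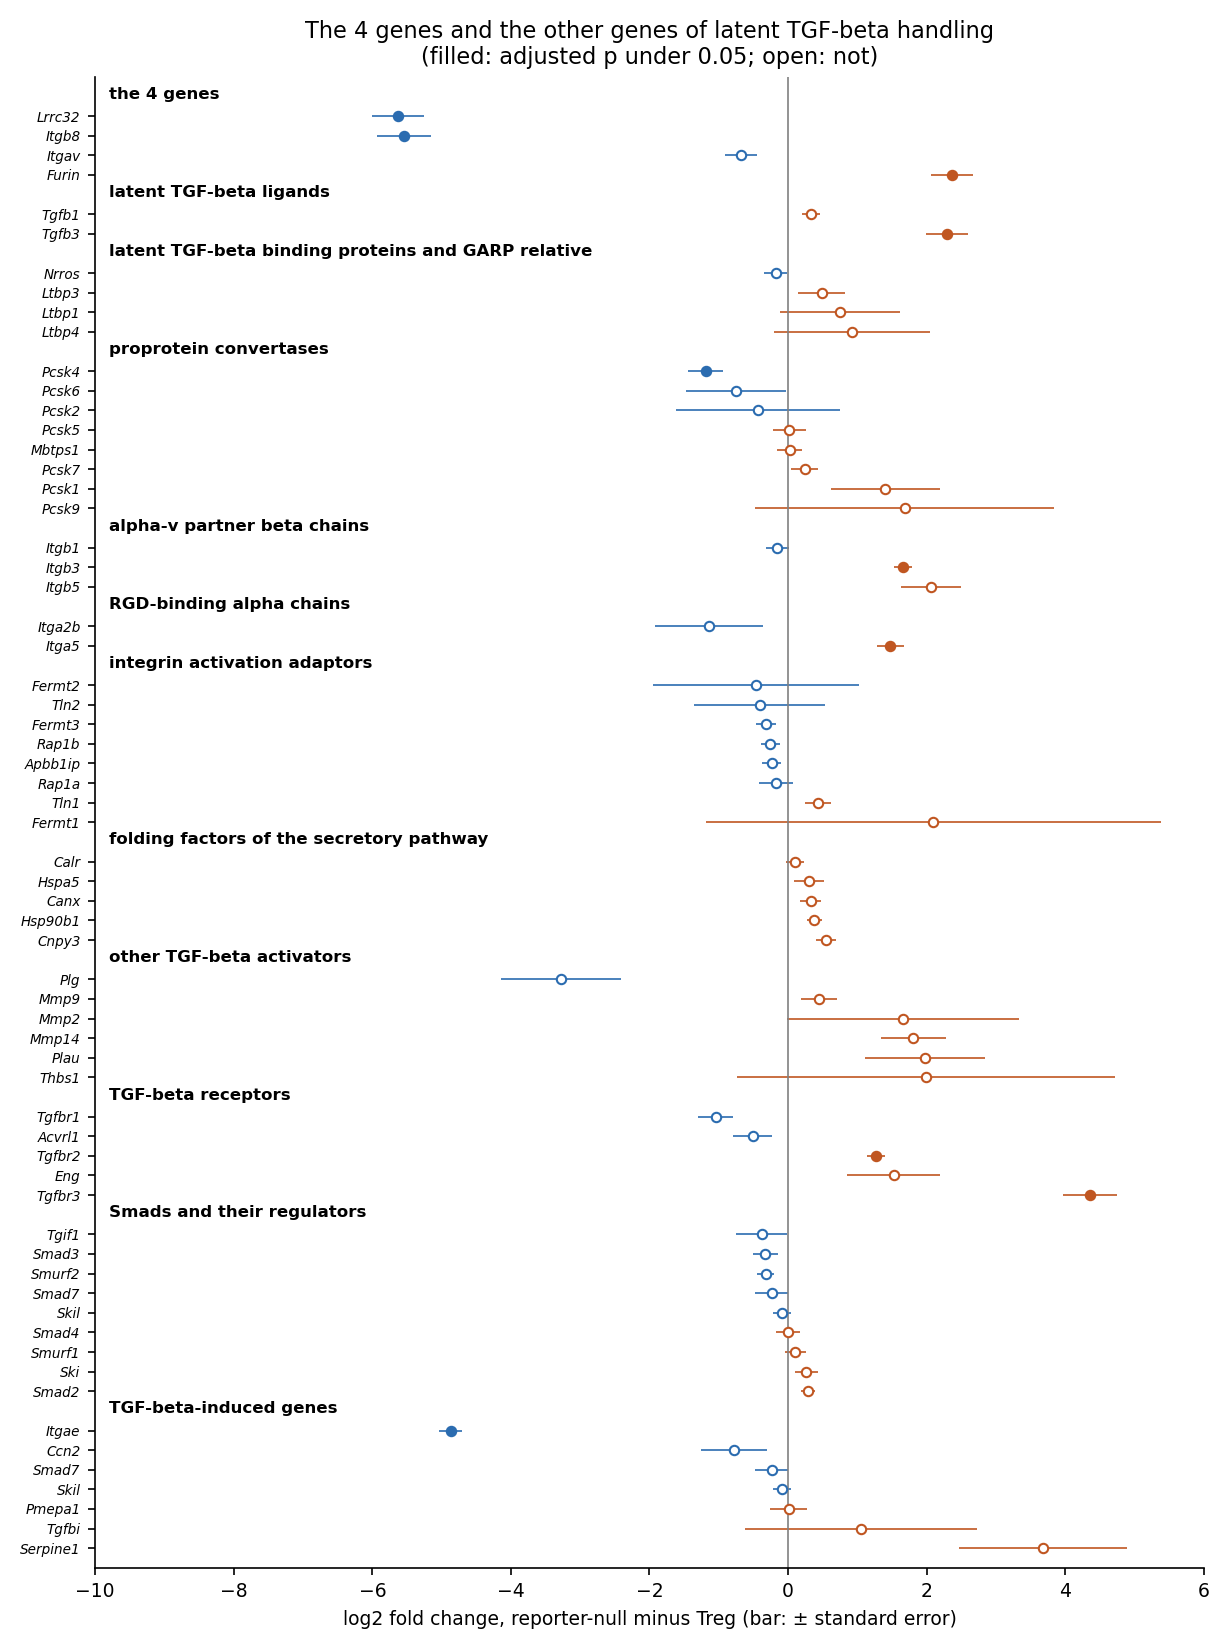
Log2 fold change (reporter-null minus Treg, bar for ± SE) of Lrrc32, Itgb8, Itgav and Furin and of the tested genes of 11 lists, orange above 0 and blue below. Filled points have an adjusted p under 0.05, and Smad7 and Skil are shown in both lists that hold them. The filled points beside Furin are Tgfb3, Itgb3, Itga5, Tgfbr2 and Tgfbr3 on the right, and Pcsk4 and Itgae beside Lrrc32 and Itgb8 on the left.

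The genes that lie beside each member were read next, up to 3 protein-coding neighbours on either side in the RefSeq annotation of GRCm38.p6. Of 23 neighbours, 15 were tested, 2 were higher and 1 was lower. Over all tested genes 4.07% were higher and 4.72% lower. The count of 3 neighbours became 0, 1 and 1 when Treg replicate 1, Treg replicate 2 or reporter-null replicate 1 was left out. Both higher genes lie on the same side of Furin. Fes, the next gene and a tyrosine kinase, rose from 5.59 and 5.87 CPM to 17.4, 14.4 and 17.7 CPM (1.52, SE 0.210, adjusted p = 0.007). Man2a2, a mannosidase of glycan processing and the gene after it, rose from 56.3 and 75.0 CPM to 157, 158 and 135 CPM (1.19, SE 0.162, adjusted p = 0.00665). On the other side of Furin, Blm gave 0.39 (adjusted p = 0.194). Leaving out Treg replicate 1, Treg replicate 2 or reporter-null replicate 1 took Fes to adjusted p of 0.07, 0.0559 and 0.0597, in a range of 6.34e-09 to 0.126. Man2a2 reached 0.0651 without Treg replicate 1, in a range of 8.3e-10 to 0.0861. The strand setting of the counting is not given, so reads that overlap such close genes cannot be assigned with certainty.

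No tested neighbour of Lrrc32 or Itgb8 fell as far as these genes did. Emsy, next to Lrrc32 on one side, was 70.5 and 69.0 CPM in Treg and 71.3, 75.8 and 78.5 CPM in reporter-null cells (0.11, adjusted p = 0.641). On the other side Gucy2d was not tested, Tsku did not exceed 0.96 CPM (-0.17, adjusted p = 0.963), and Acer3, a ceramidase and the third gene out, was lower, at -1.38 on the log2 scale (SE 0.288, adjusted p = 0.0327). Acer3 missed the threshold when Treg replicate 1, Treg replicate 2 or reporter-null replicate 1 was left out, at 0.234, 0.119 and 0.134, the first of which is the top of its range from 0.000823. Of the 5 neighbours of Itgb8, Sp4 was the only one tested, at -0.17 (adjusted p = 0.73), and Macc1 beside it had no count in any library. Beside Itgav, Zc3h15 gave -0.12 (adjusted p = 0.717) and Fam171b -1.10 (adjusted p = 0.438).

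**Figure D5:**
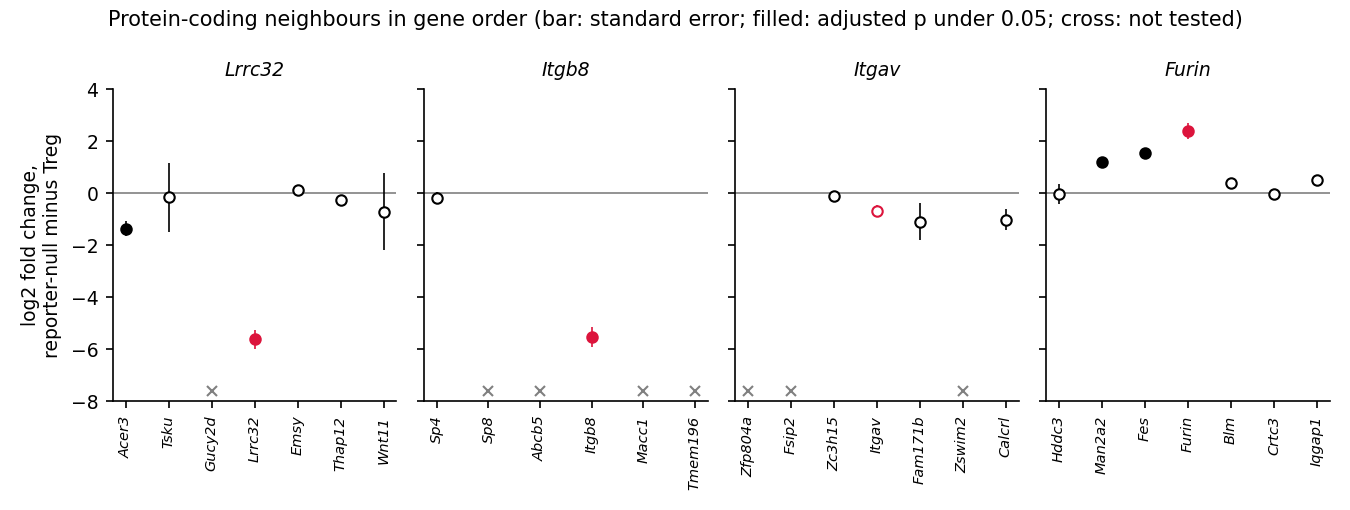
Log2 fold change (reporter-null minus Treg) of Lrrc32, Itgb8, Itgav and Furin (red) and their protein-coding neighbours (black) in gene order, with standard errors as bars, filled where the adjusted p is under 0.05 and a cross at the foot where a gene was not tested. The neighbours of Lrrc32 and Itgb8 stay far above them, and Fes and Man2a2 stand above 0 beside Furin.

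Genes with the pattern most like that of Lrrc32 and Itgb8 were found by the Euclidean distance between centred log2 CPM profiles over the 5 libraries, among 9527 genes whose average log2 CPM reached 3. This is a description, since the profiles are dominated by the difference between the groups. Atp6v0d2, a proton pump subunit, lay closest to Itgb8 at a distance of 0.384, followed by Itgae (1.01), Acod1 (1.03), Ky (1.48) and Ankrd55 (1.55). Atp6v0d2 was 43.2 and 55.9 CPM in Treg and 0.812, 0.432 and 1.16 CPM in reporter-null cells, and so had its lowest and highest values in the same libraries as Itgb8. Closest to Lrrc32 were Dnase1l3 (1.48), Itgae (1.499), Phlpp1 (1.501), Cd7 (1.54) and Tmem158 (1.61), while Lrrc32 and Itgb8 were 1.84 apart. Itgae, also an integrin chain, was on both lists.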

How the data were processed

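The authors deposited 1 table of RNA-seq counts, whole numbers for each gene symbol and library with no normalisation. Per the labels' protocols, polyadenylated RNA from cells lysed in TRIzol was turned into cDNA with a SMART-Seq v4 kit and sequenced as paired ends, and no molecular identifiers are named. The submitters' processing notes name DESeq. Aligner, build, annotation and strand setting: not given in the sources used here. Groups came from the sample titles. Of 24421 rows, 4 named NA (0.0034% to 0.00492% of counts) were left out.

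Counts were fitted in R 4.3.3 with the robust quasi-likelihood F test of edgeR 4.0.16 on TMM-scaled libraries, after filterByExpr (minimum count 10, minimum total 15), with Benjamini-Hochberg adjustment over all genes and a threshold of 0.05. The SE was taken as the log2 fold change over the root of the F statistic. The median log2 fold change of all tested genes was 0.02. No replicate pair agreed within sampling noise (chi-square per degree of freedom 21.3 to 91.2). On counts simulated for this comparison (14164 genes, 50 planted per size), 36%, 76%, 82% and 92% of genes at log2 changes of 1, 2, 3 and 4 were recovered. False calls were 16 of 159, a larger share than the threshold of 0.05. Each gene was drawn on its own, and fewer changes were planted than were called in the data. The simulation thus leaves out the deviation that many genes share in Treg replicate 1 and reporter-null replicate 2. Profiles used log2 CPM with a prior count of 2, and read ratios used 0.5 added counts.

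The members and lists were chosen with earlier results of these data known, so a list is described by counts and medians and given no test. The rule named the members, every called list gene with up to 3 of the most abundant uncalled ones, called and nearest tested neighbours, and the 5 nearest profiles; further genes are named to account for a list. Ccn2 and Thap12 were matched through older symbols, and 4 T cell receptor constant genes among the markers had no row that matched. The 16 alternatives used DESeq2 1.42.0, limma 3.58.1 (voom with or without quality weights), other scaling (RLE or upper quartile), no filter, a CPM filter, thinned counts, each library left out, 2 replicate blocks and, added after seeing the data, both libraries with the most epithelial marker RNA left out. The summed level of the B cell markers is not reported here.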

Additional observations from a re-analysis of the deposited data

How the results depend on the processing

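The direction of Lrrc32, Itgb8, Itgav and Furin was the same in all 16 alternatives, and Lrrc32 passed the threshold in each. Itgb8 missed it in 1 (the block by title numbers), Furin in 2 and Itgav passed in 3. With each library left out, the log2 fold changes ran from -5.95 to -5.36 for Lrrc32, -6.01 to -5.27 for Itgb8, -0.95 to -0.56 for Itgav and 2.08 to 2.74 for Furin. A fit without a Treg library assumes that the lone one varies like the reporter-null libraries. Itgav passed at -0.68 with DESeq2 and -0.85 with limma-voom and quality weights.

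The labels do not say what the replicate numbers mark, so no pairing was assumed. By title numbers the deviations of same-numbered libraries correlated at -0.51 and -0.60, by the numbers in the descriptions at 0.60 and 0.48. With 2 Treg libraries, the deviations from their mean are mirror images, so these values are not independent. The -0.60 and the 0.60 are 1 correlation of reporter-null replicate 2 with its sign turned. They therefore cannot decide whether either numbering marks pairs. With the replicate block by title numbers, Itgb8 was -6.02 (adjusted p = 0.0502) and Furin 2.54 (0.0505), and 24 genes, 1 list gene and 0 neighbours were called by edgeR. Reporter-null replicate 3 has no Treg library of its title number, so that fit compares the other libraries only. Itgb8 was -6.01 when this library was left out without a block. By description numbers reporter-null replicate 1 has no Treg match. The drop in calls thus cannot be read as an effect of pairing alone. With the replicate block by description numbers 1399 genes and 11 list genes were called, and Lrrc32, Itgb8 and Furin kept their calls, and Itgav again missed the threshold (0.12). Pcsk1 (0.000272) and Thbs1 (0.00105) passed with that block.

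Calls over all genes were 2323 with DESeq2, 2222 with limma-voom and quality weights, 2152 with Treg replicate 1 and reporter-null replicate 2 both left out, and 341 to 2035 with each library left out. List genes called were 14 with DESeq2, 13 with limma-voom and quality weights, 14 without both libraries and 6 to 13 with each left out. Neighbours called were 5 with quality weights and 0 to 4 with each library left out. Without both libraries Itgav was -0.48 and Furin 1.86.

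List medians moved more than their spread in a few settings. The RGD-binding alpha chains gave 1.46 under a CPM filter, which drops Itga2b, and the Smads -0.28 without both libraries. With libraries left out, medians ran from 1.07 to 1.62 for the ligands, 0.26 to 0.46 for the folding factors, -0.24 to 1.95 for the other activators, 1.01 to 1.35 for the receptors, -0.28 to 0.059 for the Smads and -0.51 to 0.059 for the TGF-beta-induced genes. The sign of 12 single genes, none called in the edgeR fit to all libraries, turned in at least 1 alternative. With 1 or both of the libraries left out they ranged from -0.00038 to 0.20 (Calr), -0.36 to 0.052 (Itgb1), -0.78 to 1.704 (Ltbp4), -0.28 to 0.25 (Mbtps1), -0.26 to 0.011 (Nrros), -0.025 to 0.36 (Pcsk7), -0.44 to 0.54 (Pmepa1), -0.28 to 0.059 (Skil), -0.28 to 0.23 (Smad4), -2.26 to 5.49 (Thbs1), -2.83 to 0.43 (Tsku) and -0.22 to 0.070 (Zc3h15). Ltbp4 was -0.30 with limma-voom and quality weights. Upper quartile factors gave -0.0027 for Pmepa1 and -0.012 for Smad4, which was also -0.0064 under the CPM filter, -0.018 on thinned counts and -0.0066 with the replicate block by description numbers.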
